A study of Rattus norvegicus with 2 samples.

Results

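The genes described here encode the motor of smooth muscle contraction and the enzymes that switch it on and off: the myosin heavy chains Myh11 and Myh9, the light chains Myl6 and Myl9, the light chain kinase Mylk, the protein phosphatase 1 (PP1) catalytic subunits Ppp1ca, Ppp1cb and Ppp1cc, the targeting subunit Ppp1r12a and the inhibitor Ppp1r14a. Probe sets were taken where the array annotation gave a single rat gene symbol and that symbol was on this list. The rule found 11 probe sets for 9 of the 10 genes, out of 15923 probe sets and 10418 named genes on the array. The probe set that lists Myl6 also lists Myl6b, so Myl6 had no reading of its own.

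RNA came from A7r5 cells, an established smooth muscle line from embryonic rat aorta. In the GLUT1 group the cells carried an adenovirus with the cDNA of human GLUT1, the facilitative glucose transporter, and in the control group they carried the empty adenovirus. Both groups were infected for 72 hours at a multiplicity of infection of 10, with 5.5 mM glucose in the medium, so infection itself was common to both. RNA from 3 days was pooled into 1 sample per group, and each pool was read on 1 array. The series thus has no replicate, and no difference given here has a p-value or a standard error behind it. In such bulk RNA, a lower value from fewer cells of a type and from less RNA per cell cannot be told apart.

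Smooth muscle contracts when calcium-bound calmodulin activates myosin light chain kinase, which phosphorylates the regulatory light chain and lets the heavy chain pull on actin. Myosin phosphatase reverses the step. It is a complex of the PP1 catalytic subunit encoded by Ppp1cb and the myosin-targeting subunit MYPT1, encoded by Ppp1r12a, and it is held back by CPI-17, the product of Ppp1r14a, once protein kinase C has phosphorylated it. Myh11 marks the contractile state of vascular smooth muscle, whereas Myh9, the heavy chain of non-muscle myosin IIA, serves migration, division and cell shape in most cells.

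The values are deposited intensities in array units. Values at or below 175 were set to that floor before log2 was taken, and genes whose mean log2 intensity was at least 8.99, an intensity of 507, are called measured. Of the members with a probe set, 6 of 9 genes and 8 of 11 probe sets were measured, and 3 genes were dimmer. A difference is the log2 ratio, GLUT1 over empty virus. Beside it stands the local spread, the scaled median absolute deviation of log2 ratios among the 501 measured probe sets of most similar brightness. The local spread holds array noise and real differences together and is no replicate error. Probe sets bind their targets with unequal strength, so intensities of different genes stand side by side here and do not order the amounts of mRNA.

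Among the measured members the ratio furthest from 0 was that of Ppp1cb, which encodes the PP1 catalytic subunit of myosin phosphatase. Its RNA was read 1.28-fold lower on the GLUT1 array by a single probe set, and the enzyme was not measured. The sister isoforms Ppp1ca and Ppp1cc were each within 0.06 log2 units of 0. Ppp1r12a was 1.21-fold lower by its brighter probe set and 1.08-fold higher by its dimmer one. Myh9 was higher by both of its probe sets, the dimmer one by less than its local spread. Myl9 was slightly lower, and Myh11, Mylk and Ppp1r14a were too dim to compare. No member reached 2-fold, a size that 0.0164% of all 6116 measured genes passed. That percentage is the single gene Slc7a5, a subunit of an amino acid transporter, at 660 and 1643.

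**Figure D1:**
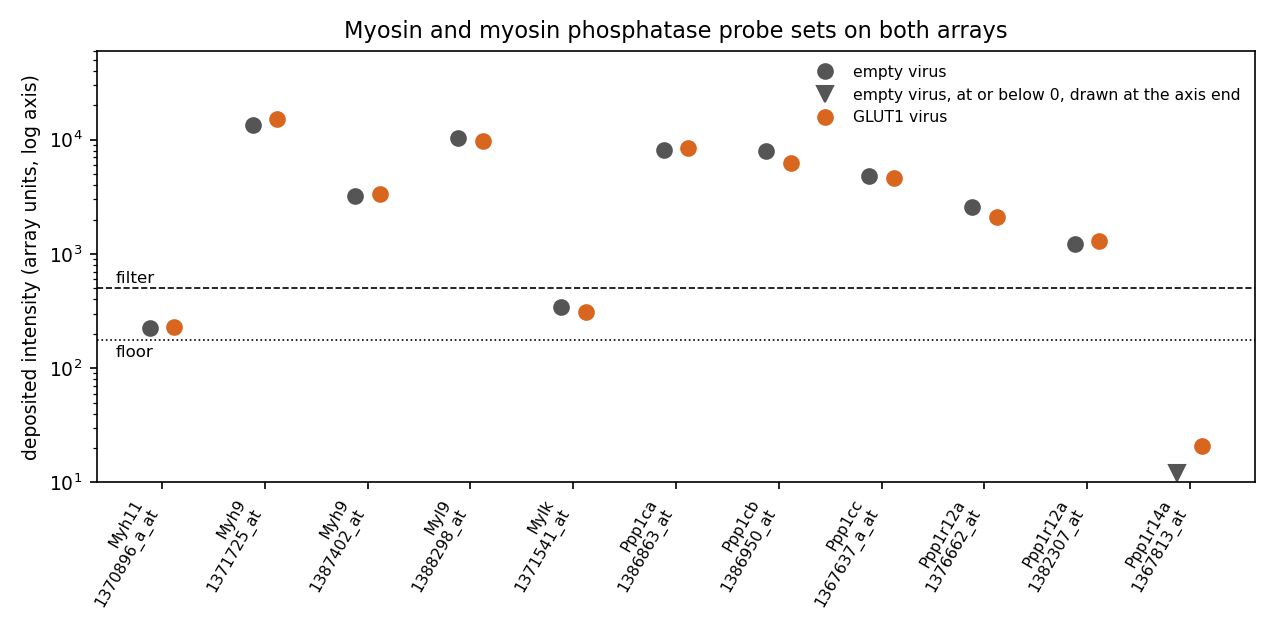
Deposited intensity (array units, log axis) of the 11 member probe sets on the empty virus array (grey) and the GLUT1 array (orange), 1 array each and so without error bars; the dashed line is the filter at 507 and the dotted line the floor at 175. Myh11, Mylk and Ppp1r14a lie below the filter on both arrays, and Ppp1cb shows the widest gap on the log axis among the probe sets above it, 7983 against 6235.

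The 3 catalytic genes encode closely similar enzymes that differ in their partners, and only the product of Ppp1cb is the standard catalytic part of myosin phosphatase. The 150 bases before their RefSeq start sites (build GRCr8) are shown because Ppp1cb parted from the other 2 on these arrays. The window of Ppp1ca is chr1:210914426-210914575 on the plus strand, that of Ppp1cb chr6:29712836-29712985 on the minus strand, and that of Ppp1cc chr12:40061302-40061451 on the minus strand. Each is written 5′ to 3′ in the direction of transcription and ends at the base before the start. Capitals mark GGGCGG or its reverse complement CCGCCC, the core of the GC box that Sp-family factors can bind, with overlapping matches counted singly.
Ppp1ca: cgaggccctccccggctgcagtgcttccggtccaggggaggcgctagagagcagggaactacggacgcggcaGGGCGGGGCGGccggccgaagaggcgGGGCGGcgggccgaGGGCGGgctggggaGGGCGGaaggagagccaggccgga
Ppp1cb: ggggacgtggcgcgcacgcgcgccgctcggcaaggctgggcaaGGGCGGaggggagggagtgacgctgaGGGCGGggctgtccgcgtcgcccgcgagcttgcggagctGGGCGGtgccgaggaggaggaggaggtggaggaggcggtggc
Ppp1cc: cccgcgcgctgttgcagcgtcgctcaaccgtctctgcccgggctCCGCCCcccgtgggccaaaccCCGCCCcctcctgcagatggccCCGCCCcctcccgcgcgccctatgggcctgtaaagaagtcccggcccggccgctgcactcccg
The window of Ppp1ca held 5 matches and those of Ppp1cb and Ppp1cc 3 each, and their GC contents were 78.0%, 77.3% and 76.0%. At least 1 match was present in 26% of all 33469 such windows, whose median GC content was 52.7%, a share not matched for GC content. All 3 windows thus held the hexamer, as did those of Ppp1r12a and Ppp1r14a and, in total, 6 of the 9 member windows. A match is a stretch of letters rather than a shown binding site. Any bearing of these windows on the ratios was not tested.

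Ppp1cb was read by probe set 1386950_at at 7983 with empty virus and 6235 with GLUT1, a log2 ratio of -0.36. The local spread there was 0.084, so the ratio lay 4.21 local spreads from 0. Among the 500 other probe sets nearest to it in brightness none had a lower ratio, and among all 7962 measured probe sets, most of them dimmer and more scattered, 97 were lower. The single probe set leaves Ppp1cb without a second reading inside the array.

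Ppp1ca, whose product serves many other PP1 complexes, was read by 1386863_at at 8197 and 8430, a log2 ratio of 0.04. Ppp1cc, the gamma isoform, was read by 1367637_a_at at 4816 and 4637, a log2 ratio of -0.05. Both lay within their local spread, at 0.516 and 0.590 times it. The log2 ratio of Ppp1cb was thus 0.40 below that of Ppp1ca, while the ratios of Ppp1ca and Ppp1cc were 0.10 apart. For scale, the 2 brightest measured probe sets of one and the same gene were at least as far apart as Ppp1cb and Ppp1ca in 39 of 705 genes, or 5.53%, and at least as far apart as Ppp1ca and Ppp1cc in 416, or 59.0%. Between Ppp1cb and Ppp1cc the difference was 0.30, which 75 of the 705 genes reached. These pairs were not matched in brightness to the catalytic genes, and dimmer probe sets scatter more. With 1 array per group these distances describe probe sets on these arrays and not the conditions.

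Ppp1r12a, which brings the catalytic subunit to myosin, was read by 2 probe sets that pointed in opposite directions. The brighter, 1376662_at, gave 2556 with empty virus and 2113 with GLUT1, a log2 ratio of -0.27, which is 2.62 local spreads from 0. The dimmer, 1382307_at, gave 1212 and 1308, a log2 ratio of 0.11, which is 0.790 local spreads. Their ratios were 0.38 apart, and 5.67% of the 705 genes with at least 2 measured probe sets showed a wider gap. The mean of both was -0.08. Among the 500 neighbours in brightness, 5 were lower than the brighter probe set, and 95 were higher than the dimmer one. A direction for Ppp1r12a therefore depends on which probe set is read.

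**Figure D2:**
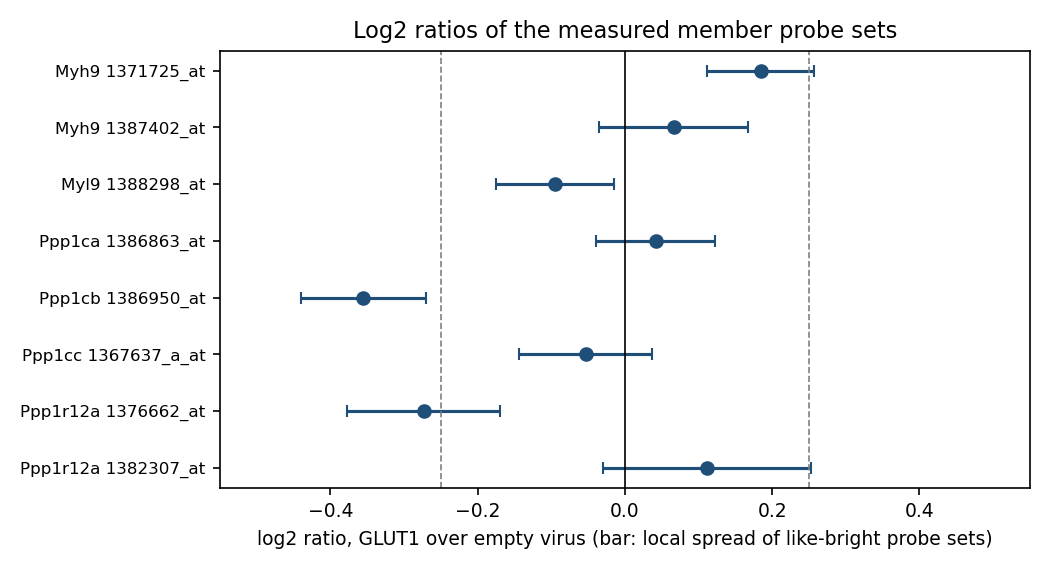
Log2 ratio (GLUT1 over empty virus) of the 8 measured member probe sets; the bars show the local spread of the 501 probe sets nearest in brightness, not a replicate error, and the dashed lines mark 0.25 either way. Ppp1cb at -0.36 and the brighter probe set of Ppp1r12a at -0.27 lie beyond the dashed line, while the other probe set of Ppp1r12a lies at 0.11.

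The inhibitor gene Ppp1r14a was not read above the floor. Probe set 1367813_at had deposited intensities of -56 with empty virus and 21 with GLUT1, both under the floor of 175, so its log2 ratio is 0 by construction and is no measurement. Detection calls were not used here, so these values say only that the probe set gave no signal above the floor.

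The heavy chains were read at very different brightness. Myh9 was read by 1371725_at at 13487 with empty virus and 15310 with GLUT1, brighter than 98.8% of all probe sets. Its log2 ratio was 0.18, a 1.14-fold difference and 2.52 times the local spread, and 4 of the 500 probe sets nearest in brightness had a higher ratio. The other probe set of Myh9, 1387402_at, gave 3184 and 3331, a log2 ratio of 0.07, which is 0.656 local spreads. Both readings of Myh9 were thus higher on the GLUT1 array, the dimmer one by less than the spread of its neighbours. Their distance of 0.12 was exceeded in 48.4% of the 705 genes, so they were about as close as probe sets of one gene usually were.

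Myh11, the smooth muscle heavy chain, was read by 1370896_a_at at 227 and 228, above the floor but below the filter. These values were brighter than 31.0% of all probe sets and differed by 1 unit. The spread of ratios was not computed for probe sets this dim, so the near-equal values put no limit on a difference. By intensity on both arrays, the non-muscle heavy chain was bright and the smooth muscle heavy chain dim, with the limit that their probe sets cannot be compared unit for unit.

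Among the light chain genes, Myl9, whose product is the regulatory chain that the kinase phosphorylates in smooth muscle, was read by 1388298_at at 10322 with empty virus and 9655 with GLUT1. The log2 ratio of -0.10 was 1.18 local spreads from 0, and 61 of its 500 neighbours in brightness were lower. The probe set that lists Myl6, Myl6l and Myl6b together, 1371304_a_at, was among the brightest on the array, at 28664 and 29984 with a log2 ratio of 0.07. It cannot be given to any of these essential light chain genes and was left out of all counts. Mylk, the kinase gene, was read by 1371541_at at 343 and 310, below the filter. Its log2 ratio of -0.14 rests on a difference of 33 units.

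**Figure D3:**
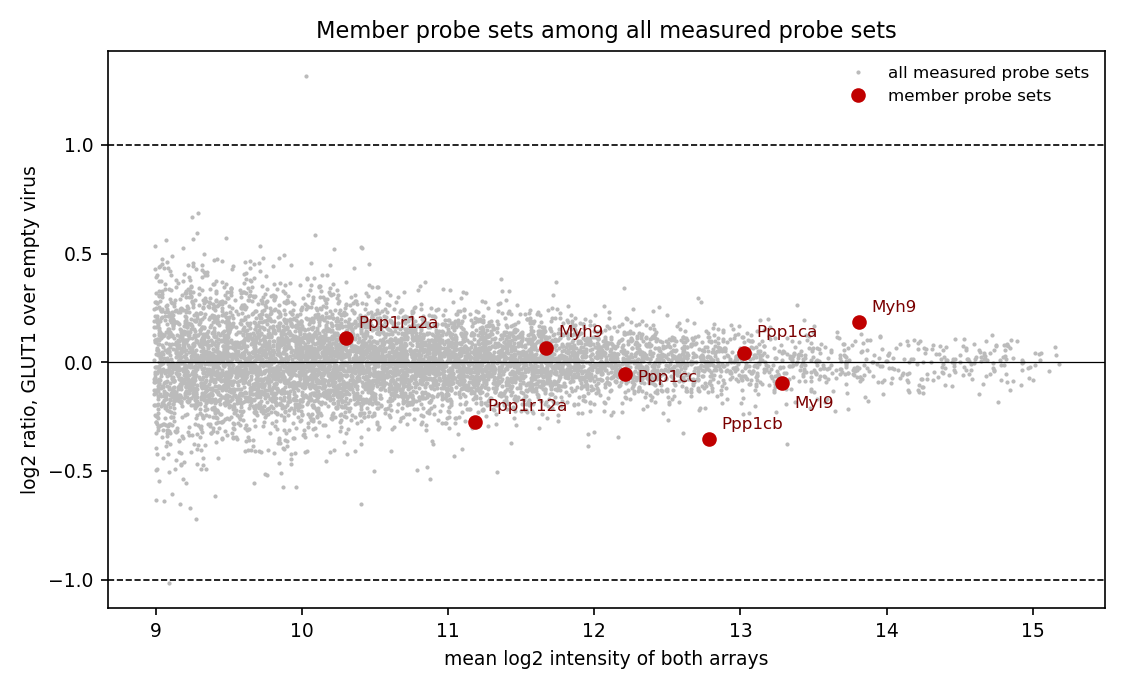
Log2 ratio (GLUT1 over empty virus) against mean log2 intensity for all 7962 measured probe sets (grey) with the 8 member probe sets in red; the dashed lines mark 2-fold. Scatter narrows with brightness, so that Ppp1cb at -0.36 sits at the lower edge and the brighter Myh9 probe set at 0.18 near the upper edge of the probe sets around them.

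As a group, the 6 measured genes, each read by its brightest probe set, had a median log2 ratio of -0.07, beside 0.01 over all 6116 measured genes. In 4 of them the ratio was below 0 and in 2 above it, while 2922 of all measured genes were below 0 and 3194 above it. An absolute log2 ratio of at least 0.25, a 1.19-fold difference, was reached by Ppp1cb and Ppp1r12a, both lower. Of all measured genes, 7.52% passed this size in either direction, 4.27% higher and 3.25% lower. Ppp1r12a is among these 2 of 6 genes only by its brighter probe set, as its other probe set gave 0.11. The count falls to Ppp1cb alone when probe sets of a gene are averaged, and the members were chosen with these values known.

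Same-gene agreement was weak across these arrays, not only in Ppp1r12a. Among the 705 genes with at least 2 measured probe sets, 359 had both ratios on the same side of 0, hardly more than did not. From these pairs, which were not matched in brightness to the members, a single log2 ratio had an SD of 0.13. Over all measured genes the SD of the log2 ratios was 0.14, so ratios spread little more between genes than within them. The ratios of Myl9, Ppp1ca and Ppp1cc were smaller than the same-gene SD. Those of Ppp1cb and the brighter probe sets of Ppp1r12a and Myh9 were larger, which does not make them differences between the conditions.

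**Figure D4:**
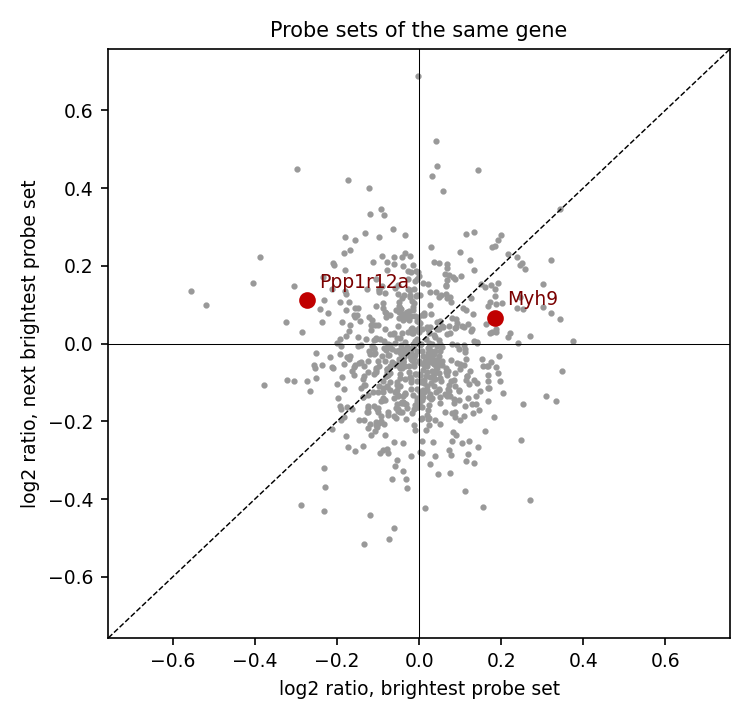
Log2 ratio (GLUT1 over empty virus) of the brightest against that of the next brightest measured probe set in 705 genes (grey), with Myh9 and Ppp1r12a in red; the dashed line marks equal ratios. Myh9 lies above 0 on both axes, and Ppp1r12a lies at -0.27 on the horizontal and 0.11 on the vertical axis.

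The other genes of the pathway, taken from the gene lists, gave no 2-fold difference. Of the other smooth and non-muscle myosin genes, 3 were on the array and all 3 were measured, none past 0.25. Myh10, the heavy chain of non-muscle myosin IIB, gave 6252 and 6342 with a log2 ratio of 0.02. The regulatory light chain genes Myl12a, at 12449 and 11898, and Myl12b, at 5481 and 5160, had log2 ratios of -0.06 and -0.09. Both lay within their local spread, and Myl12a was at -0.03 after quantile normalization.

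Striated muscle myosin genes were mostly dim, with 2 of 18 measured. Mylk2, the skeletal muscle light chain kinase, was at 2440 and 2101 by its brighter probe set, a log2 ratio of -0.21, and its other probe set was under the floor on both arrays, at 141 and 42. Myh1, annotated as a fast skeletal heavy chain, gave 4585 and 3662 by its brightest probe set, a log2 ratio of -0.32. Its 4 other measured probe sets ranged from -0.09 to 0.25. Of the 18 genes 11 were at the floor on both arrays, among them Myh2 and Myh4. What the Myh1 probe sets bind was not checked by sequence, so that name rests on the annotation alone. Of the unconventional myosins, which carry cargo and link membranes to actin, 7 of 13 were measured. Myo18a at 0.27 was higher past 0.25, none was lower past it, and the lowest was Myo9b at -0.15.

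Upstream of the light chain, in the list of calcium signalling genes, small GTPases and kinases, 22 of 30 genes were measured, with 11 above and 11 below 0 and a median log2 ratio of -0.01. None was higher past 0.25 and 1 was lower, the protein kinase C gene Prkce at 1013 and 817, a log2 ratio of -0.31. The highest was Prkca, another protein kinase C gene, at 645 and 765.

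Other regulatory subunits of PP1 were measured in 15 of 22 cases, with 11 above and 4 below 0 and a median log2 ratio of 0.03. Over all measured genes, 3194 were above and 2922 below 0. Ppp1r13l at 0.40 and Ppp1r18 at 0.30 were higher past 0.25, and none was lower past it. The lowest was Ppp1r15a, which directs PP1 to the initiation factor eIF2, at -0.15. Paralogues of the members on the array, chosen after their values were seen, were Ppp1r12c, a targeting subunit, at 876 and 1020 with a log2 ratio of 0.22, and the inhibitors Ppp1r14b and Ppp1r14c. By its brighter probe set Ppp1r14b was at 7743 and 8478 with a log2 ratio of 0.13. Its other probe set was below the filter, at 202 and 217. Ppp1r14c, also below the filter, was at 378 and 382.

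Catalytic subunits of other serine/threonine phosphatases were measured in 11 of 15 cases, with a median log2 ratio of 0.08. They ranged from -0.06 for Ppm1g to 0.28 for Ppm1f, and 1 was higher and none lower past 0.25. The log2 ratio of Ppp1cb lay below this whole range, whereas those of Ppp1ca and Ppp1cc lay inside it.

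**Figure D5:**
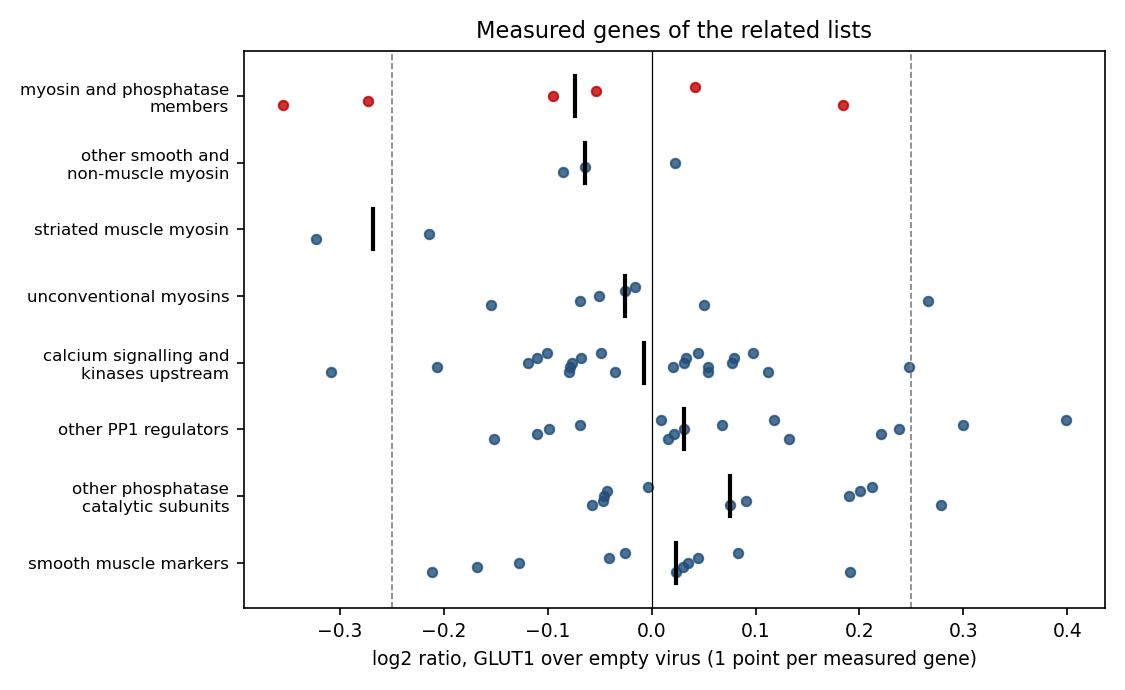
Log2 ratio (GLUT1 over empty virus) of each measured gene, read by its brightest probe set, in the member list (red) and 7 related lists (blue); black bars are medians and dashed lines mark 0.25 either way. The members run from -0.36 to 0.18, and the 11 other phosphatase catalytic subunits from -0.06 to 0.28.

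The label of the cells was set against marker genes. Of 14 smooth muscle markers on the array 11 were measured, with Acta2 at 16303 and 16687 and a median log2 ratio of 0.02, from -0.21 for Actg2 to 0.19 for Smtn, while Lmod1, Itga8 and Synpo2 were below the filter. Of 14 skeletal or cardiac markers 2 were measured, Acta1 at -0.06 and Tnnc1, bright at 12199 and 12071, at -0.01. Endothelial markers were measured in 1 of 6 cases, Esam at 584 and 479 with a log2 ratio of -0.28. The 6 summed to 1080 and 881, with Pecam1 at 26 and 36. Leukocyte markers were measured in 2 of 7, summing to 3870 and 3608 over the 7, with Ptprc at 62 and 77. The measured ones were C1qb at 1352 and 1014, a log2 ratio of -0.41, and Cd14 at 1235 and 1398, a log2 ratio of 0.18. Epithelial markers were measured in 1 of 5, Krt8 at 6193 and 6500 with a log2 ratio of 0.07. Fibroblast markers were measured in 1 of 4, Col1a1 at 33287 and 34153 with a log2 ratio of 0.04. Krt8 and Col1a1 were thus bright on both arrays. The part of the endothelial and leukocyte genes in the lower reading of Ppp1cb was not tested. The rat Slc2a1 probe set gave 2902 and 3121, and no source used here says whether it binds the human transgene. RNA quality probes for beta-actin gave 32293 and 31715 at the 3′ end and 25628 and 26346 at the 5′ end. Those for GAPDH gave 33790 and 34037 at the 3′ end and 29017 and 27388 at the 5′ end, so the 5′ signal was slightly higher on the GLUT1 array for beta-actin and slightly lower for GAPDH.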

How the data were processed

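RNA pools of A7r5 cells were read on 2 arrays, 1 per group, grouped by the labels. The authors deposited 1 linear intensity per probe set and array. These deposited intensities are whole numbers, include values below 0 and share a median of 508. Values below 0 point to a subtraction of some kind, and the shared median points to equalised arrays. How this was done is not stated in the sources used here. The number of arrays limits the precision.

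Names came from the platform annotation, checked by gene ID against a rat gene table (GRCr8): 12798 probe sets had 1 symbol, 303 several and 2822 none. One probe set of Myh9 lists that symbol under 2 gene IDs and was kept. With numpy 2.4.6 and pandas 2.3.3, the GLUT1 array was scaled to bring the median log2 ratio of probe sets brighter than the median to 0 (0.0013 added on the log2 scale), values were floored at the 25th percentile, and the filter was the median. A gene was read by its brightest probe set. All members were named, with the highest and lowest measured gene of each list. The steps were tested on simulated data. The members, lists and sizes were chosen with earlier results of these data known. Alternatives covered scaling, floor, filter, averaging and the fold.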

Additional observations from a re-analysis of the deposited data

How the results depend on the processing

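No paired analysis was possible because there is only 1 array per group. The count of members past 0.25, 2 in the report, became 1 when the probe sets of a gene that passed the filter were averaged, since Ppp1r12a then came to -0.08. Under the other alternatives it stayed at 2. The count past 2-fold was 0 under every alternative tried, also at 1.5-fold. The median log2 ratio of the member genes ranged from -0.08 to -0.05, with 9 genes entering when no filter was set, among them Ppp1r14a, whose floored values make its ratio 0. Ppp1cb lay between -0.36 and -0.35 in all of them. It is bright and read by 1 probe set, so the floor, filter and averaging could not alter it. The deposited values of both arrays already shared a median, so this constancy says little. Low signal limits Myh11, Mylk and Ppp1r14a.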
